A study of Mus musculus with 6 samples.

Results

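The sodium pump (Na,K-ATPase) exports sodium and imports potassium at the cost of ATP, and so sets the ion gradients on which neuronal firing and glial potassium uptake depend. A pump is built from a catalytic alpha subunit and a glycosylated beta subunit that carries it to the cell surface, and it is often joined by a small single-pass protein of the FXYD family that tunes its affinity for ions. In nervous tissue the beta subunits and FXYD proteins are known to differ between neurons and glia. The 7 genes described here were chosen by symbol from the deposited count table: the beta subunit genes Atp1b1, Atp1b2 and Atp1b3, and the regulator genes Fxyd1, Fxyd2, Fxyd5 and Fxyd7. They are 7 of 45703 genes in the table, and all 7 passed the filter on low counts.

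The samples were 6 biological replicates of 1 kind, with no treated or control arm: mixed primary cultures from dorsal root ganglia (the sensory ganglia next to the spinal cord, with their neurons and satellite glia) of wild-type C57BL/6 mice aged 4 to 6 weeks. Cells grew for 7 days in medium with 10% serum, to which the growth factors EGF and FGF were added (10 ng/ml), and each sample pooled 2 dishes. The ganglion was dissociated, so the cells had lost their axons and native contacts, and the cultures are a mixture in bulk. Fewer cells of a type and less RNA per cell therefore cannot be told apart in any value below. The labels do not say how many mice stand behind a culture.

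The libraries held 20070639 to 22968642 counts. The cultures carried markers of several cell types: all 10 neuron markers (Prph, Stmn2, Snap25 and others), all 5 glial lineage markers (among them Sox10, Erbb3 and Cdh19), all 5 myelin markers and all 6 fibroblast markers were above 1 CPM (the gene's counts scaled to the library total) in every culture, as were 5 of 8 macrophage, 4 of 5 mural and 2 of 6 endothelial markers. None of these markers was listed at 0 throughout. Replicates 1 and 5 lay at opposite ends for the fibroblast, macrophage, endothelial and mural markers, but not for the neuron and glial lineage markers. The summed level of the fibroblast markers was lowest in replicate 1 at 3338 CPM and highest in replicate 5 at 13967 CPM, with a median of 5430 CPM. The macrophage (15.6 to 163.4 CPM), endothelial (8.32 to 119 CPM) and mural (55.1 to 1046 CPM) sums had the same lowest and highest replicates. The glial lineage sum was lowest in replicate 5 at 4094 CPM and highest in replicate 2 at 5928 CPM. The myelin sum had the same lowest and highest replicates, at 1177 and 3076 CPM with a median of 2558 CPM. Slopes on a myelin score were not tested. The neuron sum was lowest in replicate 5 (718 CPM) and highest in replicate 3 (1629 CPM). Without replicates 1 and 5 these sums ran from 4429 to 7446 CPM (fibroblast), 28.6 to 135 (macrophage), 19.8 to 39.1 (endothelial) and 209 to 545 (mural). Many spans, spreads and relations of the 7 genes are also given without replicate 1 or 5.

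Promoter sequence was available in the RefSeq table (GRCm38.p6) for 4 of the 7 genes. The 250 bases before the annotated start are shown for these genes for 2 reasons. Fxyd1 and Fxyd5 lie on 1 strand with only Fxyd7 between them, and had their lowest and highest level, respectively, in replicate 5. This contrast is one of that culture, as their rank correlation (Spearman's rho) over the 6 cultures was -0.09. The beta subunit genes also differ from them in base composition. The 6 motifs searched were chosen after seeing the data. Sequences read 5′ to 3′ on the gene's own strand, and capitals mark every match, on either strand, to the motifs GGGCGG (GC box) and ACAAAG (core of SOX-type sites).
Fxyd1, chr7:31054854-31055103, minus strand: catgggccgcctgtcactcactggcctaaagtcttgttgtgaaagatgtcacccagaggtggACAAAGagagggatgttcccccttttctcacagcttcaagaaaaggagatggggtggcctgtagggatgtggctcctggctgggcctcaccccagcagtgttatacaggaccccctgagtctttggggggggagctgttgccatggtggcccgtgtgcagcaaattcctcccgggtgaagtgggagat
Fxyd5, chr7:31042332-31042581, minus strand: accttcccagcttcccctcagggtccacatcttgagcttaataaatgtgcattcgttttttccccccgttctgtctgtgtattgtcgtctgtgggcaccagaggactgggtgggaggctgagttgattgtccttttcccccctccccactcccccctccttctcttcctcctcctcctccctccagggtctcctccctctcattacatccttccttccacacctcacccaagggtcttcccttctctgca
Atp1b1, chr1:164458356-164458605, minus strand: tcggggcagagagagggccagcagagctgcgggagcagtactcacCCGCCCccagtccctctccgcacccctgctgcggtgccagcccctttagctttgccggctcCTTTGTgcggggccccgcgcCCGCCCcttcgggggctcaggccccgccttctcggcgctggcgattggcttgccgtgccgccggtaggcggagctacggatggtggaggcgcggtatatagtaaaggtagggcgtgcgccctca
Atp1b3, chr9:96364432-96364681, minus strand: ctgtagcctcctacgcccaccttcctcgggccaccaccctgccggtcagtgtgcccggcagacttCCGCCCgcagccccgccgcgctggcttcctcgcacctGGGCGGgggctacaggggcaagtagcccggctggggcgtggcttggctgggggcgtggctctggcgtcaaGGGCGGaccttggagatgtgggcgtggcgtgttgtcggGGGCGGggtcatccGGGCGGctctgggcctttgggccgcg
The beta subunit windows were rich in G and C (70.4% for Atp1b1 and 73.6% for Atp1b3, each with 24 CpG dinucleotides), whereas Fxyd1 (57.2%) and Fxyd5 (55.6%) held 3 CpG each. The median over 32851 promoters of the same length was 52.4% and 6 CpG. A GC box matched at 5 places in Atp1b3, at 2 in Atp1b1 and at none in either Fxyd window, and 32.7% of all promoters hold a match. The SOX-type letters matched once in Fxyd1 and once in Atp1b1, as they do in 16.5% of all promoters. None of the 4 windows held TATAAA (12.4% of all promoters), TGANTCA (AP-1, 6.75%) or TGACGTCA (CRE, 1.55%), again on either strand. The E-box CANNTG, not capitalised, was found once in the Atp1b3 window and in none of the other 3, and in 66.2% of all promoters. A further start listed for Atp1b3, not shown, has a window with 76.8% G and C, 35 CpG, 0 GC boxes, 1 SOX-type match and 1 E-box, so the motif counts of this gene depend on the start taken. The Fxyd1 window lies inside the gene's annotated extent, since the table lists a start downstream of the outermost one. The first bases of the Fxyd5 window, from 31042581 down to 31042515, lie inside the annotated extent of Fxyd7 on the same strand.

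In CPM per kilobase of combined exon length, Fxyd1 was the highest of the 7 genes in every culture and Fxyd2 the lowest in every culture. Both ranks depend on the division by length. In mean CPM not divided by length, Atp1b2 (267) was above Fxyd1 (237), and Fxyd2 (14.4) was above Fxyd7 (11.8). Fxyd1 stood at 133 ± 33.6 CPM per kb (SD, n = 6), above 97.5% of the 14953 genes with a mean of at least 1 CPM. It was followed by Atp1b2 at 64.3 ± 26.2, Atp1b3 at 29.5 ± 2.89, Fxyd5 at 23.6 ± 5.29, Atp1b1 at 20.8 ± 4.89, Fxyd7 at 17.4 ± 4.53 and Fxyd2 at 9.80 ± 2.24 CPM per kb (SD, n = 6 each). Even Fxyd2 exceeded the level of 58.7% of those genes.

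**Figure D1:**
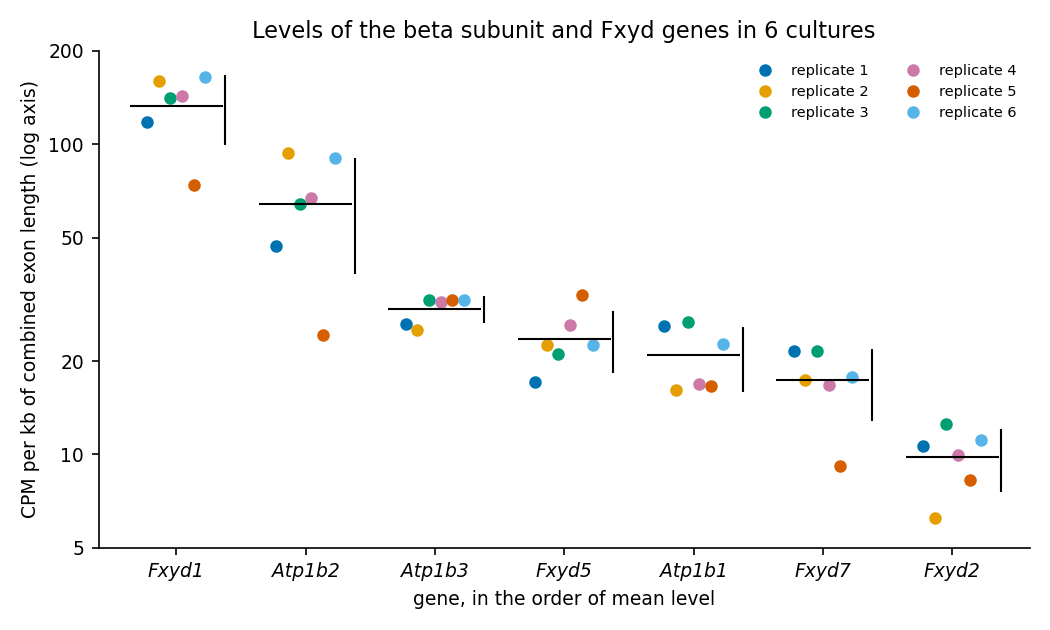
CPM per kb of combined exon length (log axis) for each gene, with 1 point per culture, a horizontal line at the mean and a vertical bar of 1 SD either side (n = 6). Fxyd1 is the highest gene in all 6 cultures, and the replicate 5 points lie lowest for Fxyd1, Atp1b2 and Fxyd7 and highest for Fxyd5.

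Neighbours in this order were compared within each culture on the log2(CPM per kb + 0.1) scale, by an exact permutation test, two-sided, that flips the signs of the differences and can give no p below 0.0312 with 6 cultures. Fxyd1 exceeded Atp1b2 in 6 of 6 cultures by 1.13 ± 0.302, and Fxyd7 exceeded Fxyd2 in 6 of 6 by 0.80 ± 0.435 (SD, n = 6; exact permutation p = 0.0312 each). After Benjamini-Hochberg adjustment over the 6 neighbouring pairs both had an adjusted p of 0.0938, so no neighbouring pair passed 0.05. A pair could pass only if several pairs reached the lowest possible p together, so the adjusted p cannot decide on a single pair. The pairs were also set by the same levels that were tested. Atp1b2 over Atp1b3 (1.00 ± 0.773), Atp1b3 over Fxyd5 (0.34 ± 0.263) and Atp1b1 over Fxyd7 (0.28 ± 0.338) held in 5 of 6 cultures each. With these lengths Fxyd5 and Atp1b1 changed places from culture to culture, with a difference of 0.18 ± 0.605 that was within the replicate spread (higher in 3 of 6; exact permutation p = 0.4375).

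The order also depends on the length used. The combined exon length of Atp1b3 in the table is 5401 bases, while its only protein-coding transcript in the GENCODE M21 basic set (also GRCm38) has 1994, and for Fxyd1 the values are 1777 and a median of 539. With GENCODE lengths, an alternative chosen after seeing the data, Fxyd1 reached 439 and Atp1b3 79.9 CPM per kb. The mean of Fxyd2 (22.1 CPM per kb) was then above those of Atp1b1 (20.9) and Fxyd7 (17.9). Fxyd5 then exceeded Atp1b1 in 6 of 6 cultures by 0.96 ± 0.605 (exact permutation p = 0.0312, adjusted 0.0625), whereas in CPM not divided by length it was lower in 5 of 6, at -0.69 ± 0.606. Atp1b2 exceeded Atp1b3 by only 0.11 ± 0.774 with GENCODE lengths (exact permutation p = 0.75).

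All 3 beta subunit genes were expressed. Atp1b2 encodes the subunit also known as the adhesion molecule on glia, and lies on chromosome 11 (69599728 to 69605978, minus strand). Its level ran from 100.7 CPM in replicate 5 through 194 in replicate 1, 267 in replicate 3, 278 in replicate 4 and 374 in replicate 6 to 388 in replicate 2. The highest culture exceeded the lowest 3.85-fold, and the mean was 267 ± 109 CPM (SD, n = 6). Without replicate 5 the span was 1.99-fold, slightly below the 2.01-fold span of Fxyd2.

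Atp1b3 encodes a beta subunit found in many tissues, and lies on chromosome 9 (96332655 to 96364431, minus strand). It had the narrowest range of the 7 genes, 136 to 170.4 CPM with a median of 169 CPM, a 1.25-fold span. Replicates 1 and 2 were lower, at 142 and 136 CPM, and the other 4 cultures lay between 167.8 and 170.4 CPM. Its counts were fractional in 5 of 6 cultures, and how reads matching several places were counted is not given in the sources used here.

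Atp1b1, the beta subunit prominent in neurons and in many epithelia, lies on chromosome 1 (164437099 to 164458355, minus strand). It ranged from 41.7 to 69.2 CPM with a median of 51.3 CPM. The cultures fell into an upper set, replicates 3, 1 and 6 at 69.2, 67.1 and 58.9 CPM, and a lower set, replicates 4, 5 and 2 at 43.7, 43.2 and 41.7 CPM. Atp1b1 overlaps Nme7 on the opposite strand, which had at most 435 counts in a culture against at least 877 for Atp1b1. The strand setting of the counting is not given in the sources used here, so reads of the overlap cannot be told apart.

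With the combined exon lengths, Atp1b2 had the largest share of the beta subunit signal in every culture but replicate 5. Its share of the summed CPM per kb of the 3 genes was lowest in replicate 5 at 33.5%, had a median of 55.4% and was highest in replicate 2 at 69.3% (mean 53.9% ± 12.6, SD, n = 6). Atp1b3 held 27.2% ± 8.61 and was the leading gene in replicate 5 at 43.5%, while the other cultures had 18.7% to 27.0%. Atp1b1 held 18.9% ± 5.55. The summed level of the 3 genes spanned 72.5 to 144 CPM per kb, and the lowest sum belonged to replicate 5. With GENCODE lengths the lead of Atp1b2 shrank to 46.4% against 42.5% for Atp1b3 and 11.0% for Atp1b1, and Atp1b3 led in replicate 1 as well (43.1% against 41.2%).

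Fxyd1 encodes phospholemman, a regulator of the pump best known from heart, muscle and glia. It lies on chromosome 7 (31051678 to 31055873, minus strand), 223 bases from Fxyd7, which is in turn 183 bases from Fxyd5, all on the same strand. Fxyd1 was at 131 CPM in replicate 5, 209 in replicate 1, 249.8 in replicate 3, 253 in replicate 4, 283 in replicate 2 and 293 in replicate 6. The lowest culture was again replicate 5, and the span was 2.24-fold with it and 1.40-fold without it.

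Fxyd7 encodes a regulator known from neurons and glia of the brain, and lies between its neighbours (31042515 to 31051454). Its level was lowest in replicate 5 at 6.21 CPM, had a median of 11.9 CPM and was highest in replicate 3 at 14.7 CPM. The other 4 cultures lay between 11.4 and 14.6 CPM, so the span was 2.36-fold with replicate 5 and 1.29-fold without it. Counts of Fxyd1 and Fxyd7 were fractional in 4 cultures each, each ending in 0.5.

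Fxyd5, also called dysadherin, is a pump regulator linked to altered cell adhesion (31032723 to 31042331). Its order of cultures was nearly the opposite of that of Fxyd7, but not of that of Fxyd1. Levels rose from 24.1 CPM in replicate 1 through 29.6 in replicate 3 to 31.6 in replicate 6. Replicates 2, 4 and 5 followed at 31.7, 36.8 and 46.0 CPM. Replicate 5, the lowest culture for Fxyd1 and Fxyd7, was the highest for Fxyd5. The 3 genes of this cluster overlap the noncoding gene Gm38984 on the opposite strand, which had at most 4 counts in any culture.

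Fxyd2 encodes the gamma subunit of the pump, known from kidney and from some sensory neurons, and lies on chromosome 9 (45399709 to 45410278, plus strand). Its lowest level was 9.15 CPM (replicate 2), its median 15.1 CPM and its highest level 18.4 CPM (replicate 3). Fxyd2, Atp1b1 and Atp1b2 were the genes whose counts were whole in all 6 cultures.

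Among the 4 Fxyd genes chosen here, Fxyd1 held 71.4% ± 6.42 of the summed CPM per kb, Fxyd5 13.7% ± 6.32, Fxyd7 9.43% ± 2.09 and Fxyd2 5.46% ± 1.37 (SD, n = 6). These are not shares of the whole family, because Fxyd3 and Fxyd6 also passed the filter on low counts. Their means were 38.8 and 3.86 CPM per kb, so Fxyd3 stood above Fxyd5, Fxyd7 and Fxyd2 with these lengths. The share of Fxyd1 was lowest in replicate 5 at 59.5%, and that of Fxyd5 was highest there at 26.4% against 10.2% to 13.4% in the other cultures.

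**Figure D2:**
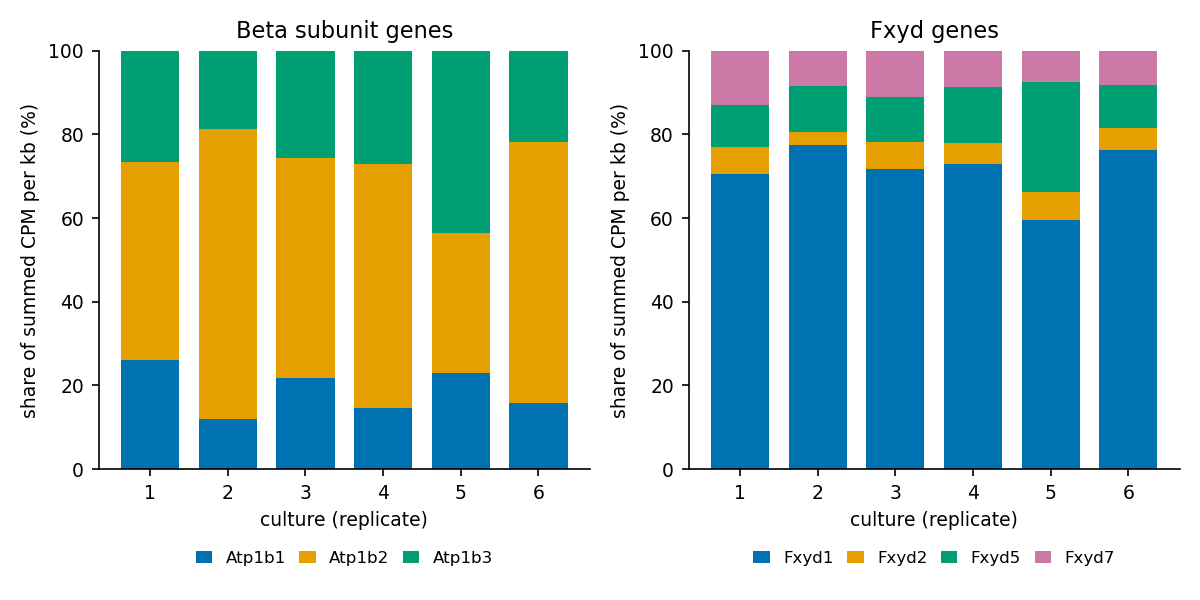
Share of the summed CPM per kb (%) taken by each gene, among the 3 beta subunit genes (left) and the 4 Fxyd genes (right), with 1 bar per culture. In replicate 5 Atp1b3 takes 43.5% of the beta sum and Fxyd5 26.4% of the Fxyd sum.

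Spread between cultures exceeded counting noise for 7 of the 7 genes by a chi-square test of their counts against the TMM-scaled library sizes (TMM is edgeR's trimmed-mean scaling), adjusted by Benjamini-Hochberg over 14998 genes. The largest adjusted p among them was 3.32e-14, for Fxyd2. All 7 also passed with each culture left out in turn, but single cultures carried much of the statistic for some genes. Without replicate 5 the chi-square fell from 85.9 to 15.1 for Fxyd7 (adjusted p = 0.00795), from 1671 to 414 for Fxyd1, from 172.9 to 58.8 for Fxyd5 and from 4952 to 2047 for Atp1b2. Without replicate 2 it fell from 74.9 to 26.8 for Fxyd2 (adjusted p = 4.66e-05). The same test called 76.3% of all genes, so the count for these genes is near the background. The coefficient of variation (SD over mean of TMM-scaled CPM) was 41.6% for Atp1b2, 26.1% for Fxyd7, 25.8% for Fxyd1, 23.0% for Atp1b1, 22.0% for Fxyd2, 21.8% for Fxyd5 and 8.63% for Atp1b3. The median was 23.0% over the 7 genes and 12.1% over all genes tested, and 6 of the 7 lay above the latter. Without replicate 5 the values were 27.9% for Atp1b2, 13.5% for Fxyd1, 11.8% for Fxyd7 and 14.7% for Fxyd5, with a median of 14.7% over the 7 genes and of 10.2% over all genes tested. Without replicate 2 the value for Fxyd2 was 14.6%. Atp1b2 varied more than 93.8% of the genes tested (87.9% without replicate 5), and Atp1b3 more than 31.9%.

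**Figure D3:**
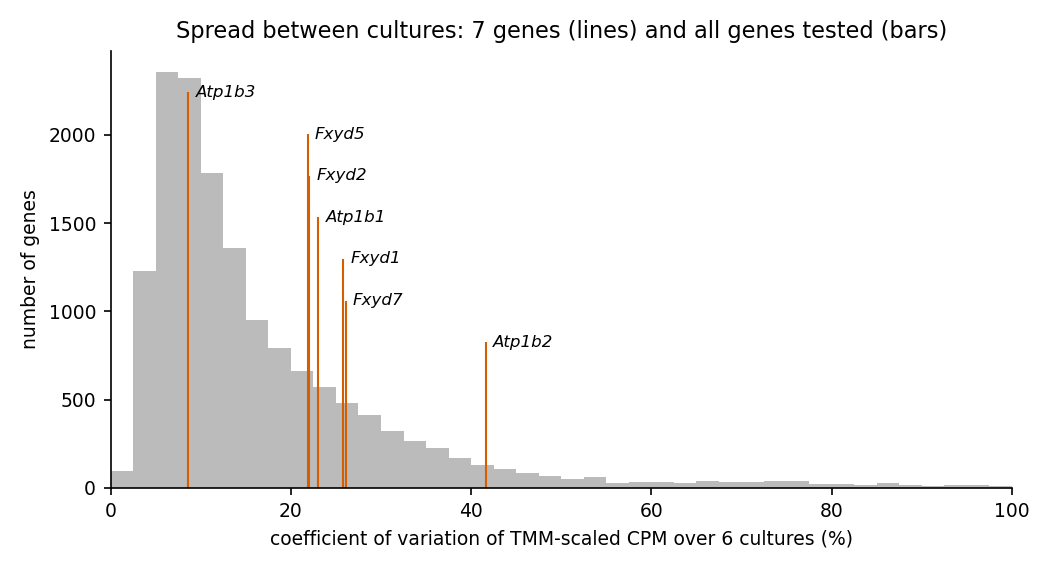
Number of genes tested (bars) by coefficient of variation of TMM-scaled CPM over the 6 cultures, in percent, with a line for each of the 7 genes; line heights carry no value, and 52 genes at or above 100% are not drawn. Atp1b3, at 8.63%, lies below the median of 12.1%, and Atp1b2, at 41.6%, lies far to its right.

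The series aimed at a profile of the cultured cells, and the next comparison asked which of the 7 genes varied with the markers of a cell type. A score was formed for each marker list as the mean log2(TMM-scaled CPM + 0.5) of its genes, and edgeR's quasi-likelihood test gave the slope of every gene on the score, adjusted by Benjamini-Hochberg over 14998 genes. A slope of 1 means that a gene doubles when the markers double on average. The scores are not independent of each other over the 6 cultures. The fibroblast score had r = 0.87 with the macrophage, -0.80 with the glial lineage and -0.57 with the neuron score. Their parts in a slope therefore cannot be told apart.

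Fxyd5 rose with the fibroblast score, with a slope of 0.28 ± 0.0424 (SE; edgeR adjusted p = 0.0111). It was the only one of the 7 genes past the threshold among 28 relations of these genes with 4 scores. Across all genes, 4.74% had a positive slope past the threshold on this score and 1.03% a negative one. Pearson's r of log2 Fxyd5 with the score was 0.97 (exact permutation p = 0.00833, adjusted over all genes 0.140). Its rank correlation, Spearman's rho, was 0.83 (exact permutation p = 0.0583, 0.353 after adjustment). With the cultures farthest from the median score left out, replicates 1 and 5, r was 0.79 over 4 cultures. The edgeR slope was 0.27 without replicate 1 (adjusted p = 0.0553) and 0.25 without replicate 5 (adjusted p = 0.251), so the call rests on these cultures, while the slope stayed between 0.24 and 0.30 under all 10 alternatives run. Macrophage, endothelial and mural markers were also lowest in replicate 1 and highest in replicate 5, and their part in the result was not tested beyond the macrophage score, on which Fxyd5 had a slope of 0.20 ± 0.0748 (edgeR adjusted p = 0.231). On the macrophage score 1.33% of genes were called with a positive and 0.260% with a negative slope by edgeR, and 5.21% and 2.21% by DESeq2. DESeq2 also called Fxyd5 on the fibroblast score (adjusted p = 2.43e-05), where it called 7.35% of genes with a positive slope. Fxyd5 had negative slopes on the glial lineage score (-0.94 ± 0.336, edgeR adjusted p = 0.177) and the neuron score (-0.55 ± 0.228, edgeR adjusted p = 0.487). Its rho with the neuron score, -0.89 (exact permutation p = 0.0333, 0.339 after adjustment), was larger in size than with the fibroblast score. These relations cannot be told apart in the 6 cultures.

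Fxyd7 had a negative slope on the fibroblast score, -0.36 ± 0.101, that did not pass with edgeR (adjusted p = 0.092) and passed with DESeq2 (adjusted p = 0.0132; 3.89% of genes called with a negative slope). Pearson's r was -0.86 (exact permutation p = 0.0278, adjusted over all genes 0.198) and rho was -0.77 (exact permutation p = 0.103, 0.436 after adjustment). Without replicate 5 the slope was -0.16, and r without replicates 1 and 5 was -0.52. Over the 7 genes 5 slopes on this score were negative, and their median was -0.22 against -0.01 over all genes tested. This sign count is not firm: without replicate 5 the slopes of Atp1b2 and Fxyd1 on the fibroblast score were positive, at 0.21 and 0.11.

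Atp1b2 and Fxyd1 had the steepest slopes on the glial lineage score, 2.73 ± 0.603 and 1.64 ± 0.364 (SE; edgeR adjusted p = 0.083 for each). Neither passed with edgeR, where 0.280% of genes were called with a positive and 0.247% with a negative slope. Both passed with DESeq2 (adjusted p = 3.4e-05 and 0.000358), where 4.29% of genes were called with a positive and 4.04% with a negative slope. Both also passed with edgeR without replicate 1 (adjusted p = 0.0129 and 0.0222). That setting called far more genes, 430 of 15235 with a positive and 721 with a negative slope. With the list median as the score neither passed (edgeR adjusted p = 0.351 for Atp1b2 and 0.347 for Fxyd1). Pearson's r was 0.89 for Atp1b2 (exact permutation p = 0.0292, adjusted over all genes 0.278) and 0.90 for Fxyd1 (exact permutation p = 0.0375, adjusted 0.292), with rho at 0.77 and 0.71. Without replicates 2 and 5, r was 0.27 for both, so these relations rest on those cultures. Without replicate 5 alone the slopes were 1.77 and 0.77. Fxyd7 had a slope of 1.61 ± 0.503 on the same score (edgeR adjusted p = 0.145, DESeq2 adjusted p = 0.0349), which was 0.08 without replicate 5. The glial lineage score spanned only 0.66 across the 6 cultures, less than the 1 unit of score to which a slope refers.

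On the neuron score 0 genes passed with edgeR (0.00% in either direction, 1537 genes at an unadjusted p under 0.05) and 335 with DESeq2. Atp1b1 and Fxyd2 did not pass with edgeR and passed with DESeq2. Atp1b1 had a slope of 0.75 ± 0.165 (edgeR adjusted p = 0.192, DESeq2 adjusted p = 0.0136) and Fxyd2 one of 0.78 ± 0.179 (edgeR adjusted p = 0.21, DESeq2 adjusted p = 0.0299). DESeq2 called 1.95% of genes with a positive slope on this score. For Atp1b1, r was 0.89 (exact permutation p = 0.0222, adjusted over all genes 0.398) and rho 0.89 (exact permutation p = 0.0333, 0.339 after adjustment). For Fxyd2, r was 0.91 (exact permutation p = 0.00694, adjusted over all genes 0.288) and rho 0.89 (exact permutation p = 0.0333, 0.339 after adjustment). With replicates 2 and 5, the farthest from the median score, left out, r was 0.82 for Atp1b1 and 0.95 for Fxyd2 over 4 cultures.

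**Figure D4:**
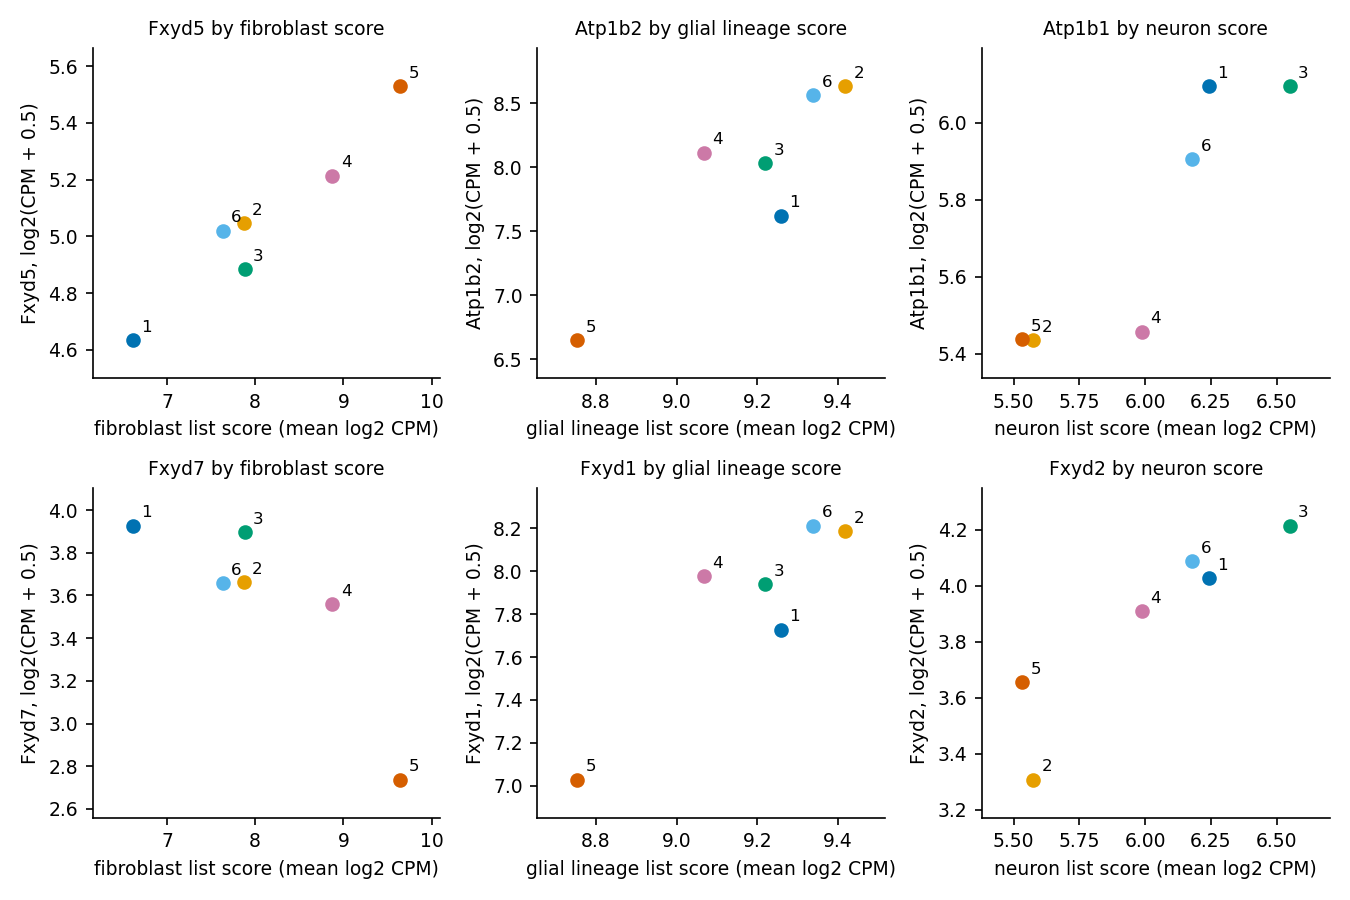
The relations drawn were chosen after seeing the data. log2(CPM + 0.5) of 6 genes (vertical axes) by the score of a marker list in mean log2 CPM (horizontal axes), with 1 point per culture labelled by replicate. Fxyd5 climbs with the fibroblast score from replicate 1 to replicate 5, Atp1b2 and Fxyd1 are low in replicate 5 where the glial lineage score is lowest, and Atp1b1 and Fxyd2 are highest in replicate 3 or 1 where the neuron score is high.

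Atp1b3 had slopes between -0.28 on the glial lineage score and 0.09 on the macrophage score. None passed the threshold (edgeR adjusted p from 0.323 to 0.917), and its slope on the neuron score, 0.07, turned negative under 2 alternatives.

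The 7 genes did not vary as a block. Among their 21 pairs the closest was Atp1b2 with Fxyd1, whose log2 levels had r = 0.99 over the 6 cultures (exact permutation p = 0.00278, adjusted over all 14997 other genes 0.416) and rho = 0.94 (exact permutation p = 0.0167). Only 0.0400% of genes followed Atp1b2 more closely by r, and without replicates 2 and 5 r was still 1.00. The order of the cultures was the same for both genes except that replicates 2 and 6 changed places. Fxyd5 and Fxyd7, 183 bases apart, ran in opposite directions with r = -0.92 (exact permutation p = 0.00278, adjusted over all other genes 0.132) and rho = -0.94 (exact permutation p = 0.0167). Without replicates 1 and 5 r was -0.93. Fxyd1 and Fxyd7, also adjacent, had r = 0.77 but rho = 0.03, and r without replicates 5 and 6 was -0.67, so their relation rests on those cultures. Fxyd1 and Fxyd5 had r = -0.53 but rho = -0.09, and r was 0.73 without replicates 5 and 6. Atp1b1 and Fxyd2 had r = 0.80 and rho = 0.83 (exact permutation p = 0.0306 and 0.0583), and the p of r adjusted over all other genes was 0.496.

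The genes most like each of the 7 in their pattern over the 6 cultures, by Pearson's r of log2 CPM among 11149 genes with a mean of at least 5 CPM, are given as a description, because with 6 cultures many genes reach a high r with any gene. Between 43 genes (for Atp1b3) and 294 genes (for Fxyd5) exceeded r = 0.95. Jam3, Reck and Slc43a3 were closest to Atp1b2, Fam3a, Hadh and Aldh1l1 to Fxyd1, and Arhgap44, Rabgap1l and Tapt1 to Atp1b1. Myom1, Myh11 and Akap12 were closest to Atp1b3, and Myh11 is also a member of the mural list. Nans, Mast4 and Ybx1 were closest to Fxyd5, Rims2, Uvssa and Yipf6 to Fxyd7, and Tagap1, Tiparp and Tmem120b to Fxyd2. The lowest r among these 21 genes was 0.986, for Tmem120b with Fxyd2.

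Of 15 further genes of the pump and its relatives (the catalytic subunits, other beta and Fxyd genes, the Nkain interaction partners and the gastric and colonic proton pumps), 8 passed the filter on low counts, and 5 had at most 3 counts in every culture. All 8 varied beyond counting noise, where the background was 76.3%. On the fibroblast score 0 of the 8 had a positive and 1 a negative slope past edgeR's threshold, and on the neuron, glial lineage and macrophage scores 0 of the 8 passed in either direction (lowest edgeR adjusted p 0.192, 0.156 and 0.323). Of the 4 genes of transporters that use the sodium gradient, Slc8a1, a sodium-calcium exchanger, rose with the fibroblast score (slope 0.86 ± 0.135, edgeR adjusted p = 0.0136) and with the macrophage score (0.84 ± 0.107, edgeR adjusted p = 0.0188). The other 3 did not pass on any of the 4 scores. Slc8a1 was low, at 0.958 to 6.78 CPM, and its slopes without single cultures are not given here. Positive slopes passed for 4.74% of all genes on the fibroblast score and 1.33% on the macrophage score. These 2 scores had r = 0.87, so the 2 calls are not separate relations.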

How the data were processed

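Poly-A RNA of 6 cultures was sequenced from stranded libraries, per the labels' protocols. The submitters' processing notes name bcl2fastq 2.20.0.422, cutadapt 2.5, STAR 2.7.2b and featureCounts 1.6.4 with GRCm38.p6. The settings for strand and for reads matching several places are not given in the sources used here. The deposited table holds estimated counts per gene with no scaling, of which 13.4% to 14.7% per library were not whole, and, as another value per the file headers, a combined exon length in bases. All 45703 gene identifiers matched RefSeq GRCm38.p6, 45701 with the same start, so coordinates are on that build, counted from 1.

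CPM used the deposited totals. For tests, counts were rounded, filtered with edgeR's filterByExpr (14998 genes) and scaled by TMM (edgeR 4.0.16, DESeq2 1.42.0, R 4.3.3; numpy 2.4.6 for exact permutations). Slope standard errors were taken as the slope divided by the root of the F statistic. The chi-square test and edgeR's slope test were run on simulated counts with planted changes, as a check of the code. The simulated score was evenly spread over the cultures, unlike the real scores, so that run does not bear on the calls made here. The 7 genes, the marker lists and the tests were chosen with earlier results of these data known. Named genes were the 7, the lists of related and marker genes, and the 3 genes most like each of the 7. Catalytic subunit genes entered counts only. Counting error is small at these depths, and it alone underlies the chi-square test. The labels give no batch. Alternatives were other scalings, lengths, pseudocounts, filters and scores, DESeq2, and leaving out each culture.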

Additional observations from a re-analysis of the deposited data

Results flagged for a closer look

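Dixon's ratio, the distance of the most extreme culture from the next one as a part of the whole range over the 6 cultures, was computed for 27 measures and set against Dixon's critical value for 6 samples: the level and the family share of each gene, the differences between neighbours in level, and the marker scores. In 2 measures the ratio was higher, and about 1.35 such measures are expected by chance. The share of Fxyd5 among the 4 Fxyd genes was 26.4% in replicate 5, with the next culture at 13.4%, a ratio of 0.806. The share of Atp1b3 among the 3 beta subunit genes was 43.5% in replicate 5, with the next culture at 27.0%, a ratio of 0.666. The gene with the largest mean share in each of these sets, Fxyd1 or Atp1b2, was at its lowest in that culture. The levels themselves, in CPM per kb, stayed below the critical value for all 7 genes.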

How the results depend on the processing

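No paired analysis was possible because all cultures belong to 1 group. Of the alternative values of levels, shares and numbers of pairs or genes called, 135 stayed within 1 SD (for numbers, within 1.5 times) and 35 moved further. With GENCODE transcript lengths, chosen after seeing the data, mean levels were 93.9 CPM per kb for Atp1b2, 79.9 for Atp1b3, 439 for Fxyd1, 22.1 for Fxyd2 and 40.8 for Fxyd5, and shares were 11.0% for Atp1b1, 42.5% for Atp1b3, 83.6% for Fxyd1 and 3.47% for Fxyd7. With CPM not divided by length, shares were 11.7% for Atp1b1, 79.0% for Fxyd1 and 3.99% for Fxyd7. The order reversed without length for Fxyd1 over Atp1b2 (-0.0917), Fxyd5 over Atp1b1 (-0.69) and Fxyd7 over Fxyd2 (-0.30), and with GENCODE lengths for Fxyd7 over Fxyd2 (-0.32); division by another length is the construction of these alternatives. No neighbouring pair passed under any alternative run, and 5 cultures could not have passed by the test's construction.

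Restricting the chi-square test to genes with whole counts gave 5819 calls of 7224 tested. Genes called on a score numbered 335 with DESeq2 and 66 with list medians for neurons, against 0. For the glial lineage they numbered 1249 with DESeq2, 209 without the low-count filter and 0 with list medians, against 79. They numbered 1687 with DESeq2 for fibroblasts against 866. For macrophages they numbered 1112 with DESeq2, 546 without the filter and 101 with list medians, against 239. Leaving out single replicates gave 0 to 1151 (glial lineage), 99 to 822 (fibroblast, 99 without replicate 5 and 507 without 4) and 54 to 564 (macrophage). The cause was not tested. All 28 slopes of the 7 genes were recomputed, and 13 values changed sign, none of them called in either fit. With list medians these were Atp1b3 on the neuron score (-0.0161) and Fxyd2 on the glial lineage score (-0.115). The others came from leaving out single replicates. On the neuron score slopes then ran from -0.639 to 1.38 for Atp1b2 (negative without replicate 5 or 6), from -0.0803 to 0.212 for Atp1b3 (negative without 2) and from -0.268 to 0.903 for Fxyd1 (negative without 5). On the glial lineage score Fxyd2 ran from -1.30 to 0.856 (negative without 5 or 6). On the fibroblast score Atp1b2 ran from -0.812 to 0.208 and Fxyd1 from -0.494 to 0.106 (positive without 5). On the macrophage score Fxyd1 ran from -0.337 to 0.0144 (positive without 5) and Fxyd2 from -0.0611 to 0.134 (negative without 2 or 3). Fxyd5 on the fibroblast score passed under every alternative except without replicate 1 or without replicate 5. Depth was not limiting for the 7 genes, whose lowest count was 130.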
